A study of Mus musculus with 6 samples.

Results

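The direct comparison of bFGF with PD0325901 set the 2 arrays of cells given a growth factor against the 2 arrays of cells given an inhibitor of the pathway that this factor uses. The cultures came from mice of the strain C57BL/6J, and their labels call them primary Sertoli cells, which are the somatic cells that nurse germ cells within the seminiferous tubule. All cultures, the vehicle ones included, grew at 34 °C in F12/DMEM to which epidermal growth factor (EGF, 5 ng/ml), transferrin (5 µg/ml) and insulin (10 µg/ml) had been added. From day 5 they received vehicle, bFGF (basic fibroblast growth factor, FGF2; 20 ng with no volume stated) or 10 µM PD0325901 for 24 h, with 2 samples per group. Genes entered the comparison where a named probe was well above background, by the scanner's own call, on both arrays of both groups. That held for 12562 of the 16510 genes with a named probe. The 2 vehicle arrays served only to show which group differed from vehicle.

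Levels are log2 signal relative to the array's 75th percentile, so a level of 0 is the 75th percentile itself, and differences are bFGF minus PD0325901 on the log2 scale. Higher or lower with bFGF, where vehicle is not named, means against PD0325901 and not against vehicle. Differences are given with the standard error (SE) of the limma fit. A gene was called where the limma p, adjusted by Benjamini-Hochberg over the 12562 genes, was under 0.05. That percentile corresponded to signals of 1464 to 1613 over the 6 arrays, and no spot was saturated. Each group lay on its own slide, and a slide's effect and a treatment's cannot be told apart. The bFGF arrays also lay at positions 3 and 4 of their slide and the others at positions 1 and 2. Nothing in the labels says whether a group's 2 samples were separate cultures, so the p-values rest on a spread between samples that may be technical. Of 29 genes listed for Sertoli cell identity, 27 were measured. Sox9 lay at a mean level of 3.48 with bFGF and 3.86 with PD0325901, and Wt1 at 3.37 and 3.01. Markers of other cells were measured too, so a difference is one of the cultures and not of Sertoli cells alone. Fewer cells of a type cannot be told apart from less RNA per cell.

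Receptors for FGF and EGF both act through Ras, Raf and the kinases MEK1 and MEK2 on ERK, a kinase that enters the nucleus and turns on immediate early genes. Among the genes it induces are its own brakes, the DUSP phosphatases and the Sprouty and Spred proteins, which makes their transcripts a usual readout of ERK activity. PD0325901 blocks MEK, whichever receptor drives it. In the testis, FGF2 and ERK signalling in Sertoli cells are known for the control of Gdnf and Etv5, which sustain spermatogonial stem cells.

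Of the 12562 genes, 8375 (66.7%) were called, 4412 (35.1%) higher and 3963 (31.5%) lower with bFGF. At least 2-fold apart were 1558 genes (12.4%), of which 1051 (8.37%) were higher and 507 (4.04%) lower with bFGF. At least 4-fold apart were 175 and 81 genes, and at least 8-fold 44 and 10. For 86.2% of the genes the arrays of the 2 groups did not overlap. The median SE was 0.05. The median size of a difference was 0.30 over all genes and 0.46 over those called, so most calls were under 2-fold. With quantile normalization the direction of the majority turned, with 3944 genes higher and 4269 lower, and at least 2-fold apart were 764 higher and 678 lower. With centring on the median 4087 were higher and 4325 lower.

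**Figure D1:**
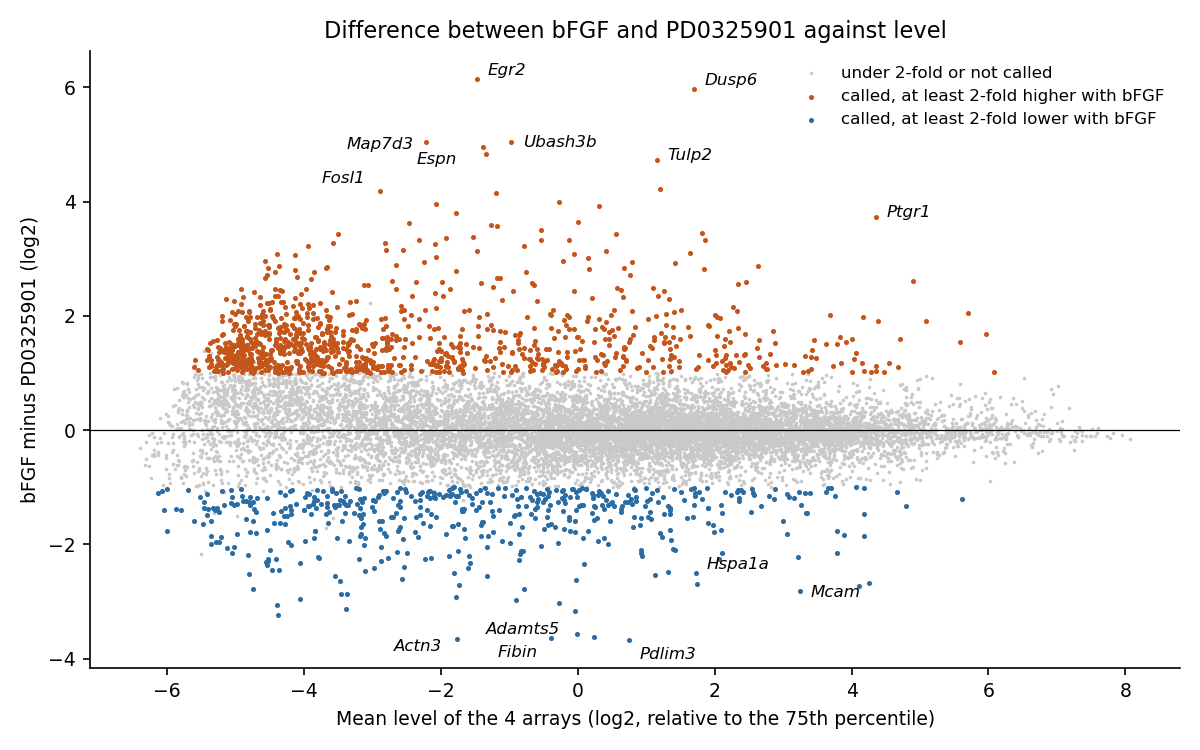
Log2 difference between bFGF and PD0325901 against the mean level of the 4 arrays, 1 point per gene (12562 genes); orange and blue points are called and at least 2-fold higher (1051) or lower (507) with bFGF. The largest differences, Egr2 and Dusp6, lie at 6.15 and 5.96, and a dense group of higher genes lies at the lowest levels.

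The excess of higher genes lay mostly among dim genes. In the lowest quartile of levels, up to -2.30, 644 genes were at least 2-fold higher with bFGF and 207 lower, and the median difference was 0.30. In the other quartiles the sum was 407 higher and 300 lower, and the medians lay between -0.04 and 0.00. The dim genes as a whole lay higher on the bFGF arrays than on the vehicle arrays as well (median 0.21), while PD0325901 differed from vehicle by a median of -0.06. Of all 3141 genes in the lowest quartile, 1506 were called higher and 695 lower with bFGF. Olfactory receptor genes, which are known from the nose and from sperm, are an example chosen after their values were seen. Of 136 measured, 134 of them in that quartile, 104 were called higher and 3 lower with bFGF, with a median difference of 1.21. Their median level was -3.65 with bFGF, -4.46 with vehicle and -5.10 with PD0325901. Background differed as well. Of the bFGF arrays' spots 76.3% and 76.0% were well above background, against 66.9% and 65.3% for PD0325901 and 66.5% and 67.0% for vehicle. The scanner's own measure of spread among negative control spots, in signal units, was 7.50 and 8.31 with bFGF against 11.1 and 12.7 with PD0325901. The part of background in the dim genes' differences was not tested. After normexp background correction the median of the lowest quartile was 0.17, and after quantile normalization 0.01. The normexp values given here and below carry an added offset of 50 signal units, which by its construction shrinks the differences of dim genes. Among the genes given below without the level of each array, Etv1, Fli1, Spred1, Fosb, Egf, Gjb2, Tjp3, Rarb, Wnt5a, Cdc6, Ccne2, Il6, Ptgs2, Rsad2, Myl1, Mybpc2, Myoz1, Myocd, Mfap5, Postn, Krt19, Cdh1, Emcn, Flt1, Cldn5, C1qa, C1qb, Kit and Tnp1 lay in the lowest quartile, as did those called dim.

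**Figure D2:**
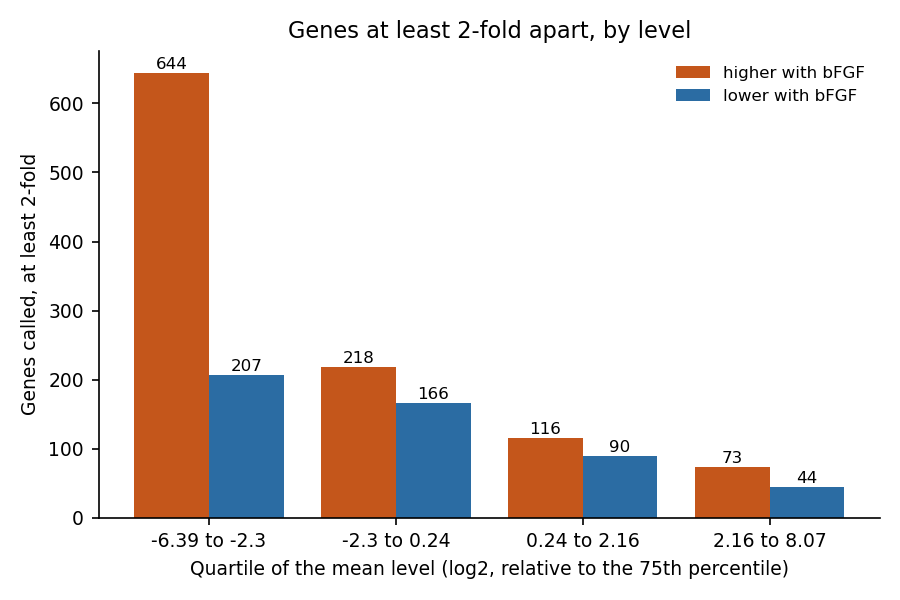
Number of called genes at least 2-fold higher (orange) or lower (blue) with bFGF in each quartile of the mean level on the log2 scale. The lowest quartile holds 644 higher and 207 lower genes and the highest 73 and 44.

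The vehicle arrays place each treatment's level beside vehicle, on a slide of its own. Of the 8375 called genes, 4713 (56.3%) differed from vehicle under the inhibitor only, 701 (8.37%) under bFGF only, 909 (10.9%) under both in opposite directions, 645 (7.70%) under both in the same direction and 1407 (16.8%) under neither. Over all 12562 genes 58.5% passed for PD0325901 against vehicle and 22.5% for bFGF against vehicle. These counts share the vehicle arrays. For 1260 of the 1558 genes at least 2-fold apart (80.9%) the vehicle mean lay nearer to bFGF than to PD0325901. Above the lowest quartile of levels, 707 genes were at least 2-fold apart. Of these, 396 belonged to the inhibitor only, 233 to both in opposite directions, 68 to both in the same direction, 6 to bFGF only and 4 to neither. The counts for bFGF depended on single arrays. Over all called genes, the number that differed from vehicle with bFGF only was 248 without bFGF replicate 1, 115 without bFGF replicate 2, 396 without PD0325901 replicate 1 and 415 without PD0325901 replicate 2. The number with both in opposite directions was 366, 184, 392 and 377 in the same order, and the number with both in the same direction 335, 209, 315 and 311. Those that differed with neither numbered 2164, 2297, 3159 and 3141. Calls of bFGF against vehicle fell from 2824 to 607 without bFGF replicate 2.

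Egr2, an immediate early zinc finger factor, had the largest difference. It lay at levels of 1.54 and 1.67 with bFGF, -4.50 and -4.60 with PD0325901 and 1.28 and 1.32 with vehicle. Both bFGF arrays lay above both vehicle arrays, but nearly the whole distance was between vehicle and the inhibitor. The difference was 6.15 ± 0.07 (71.1-fold, limma adjusted p = 9.96e-05). The inhibitor arrays were dim, and with normexp the difference was 5.16. Map7d3, a microtubule-associated protein of the MAP7 family, lay at 0.31 and 0.30 with bFGF, -4.77 and -4.70 with PD0325901 and -0.20 and -0.19 with vehicle. Its difference was 5.04 ± 0.04 (3.92 with normexp). Fibin, a secreted protein, went the other way, with -2.23 and -2.18 with bFGF, 1.41 and 1.47 with PD0325901 and -1.63 and -1.48 with vehicle. Its difference was -3.65 ± 0.04 (-3.41 with normexp, limma adjusted p = 0.00011). Vehicle lay between the treatments for these 3 genes, and passed the test against both.

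The promoters below show what precedes some of these genes, a copy of a motif bound by growth-factor-responsive factors, in RefSeq sequence of build GRCm38.p6 read 5′ to 3′ on the strand of the gene. The capitals mark the motif. For Egr2 it is a CArG box, the site of serum response factor, at chr10:67537474-67537523, a factor that immediate early genes are known to depend on. For Mmp3 at chr9:7445756-7445802 and Il11 at chr7:4778213-4778259 (minus strand), both lower under the inhibitor, it is the AP-1 motif TGACTCA, here read from the other strand. For Maff at chr15:79347471-79347518 and Mcam at chr9:44134609-44134656, which moved in opposite directions, it is the cyclic AMP response motif TGACGTCA.
Egr2: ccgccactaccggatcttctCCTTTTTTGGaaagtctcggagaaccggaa
Mmp3: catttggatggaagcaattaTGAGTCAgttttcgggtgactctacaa
Il11: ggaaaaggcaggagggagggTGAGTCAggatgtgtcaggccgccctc
Maff: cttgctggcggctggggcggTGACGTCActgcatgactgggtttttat
Mcam: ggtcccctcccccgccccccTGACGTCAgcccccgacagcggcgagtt

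The motifs were not confined to these genes. The search covered the 250 bases before each RefSeq start on both strands, and a match is a description of letters, not a binding site. Promoters were matched for 10055 of the 12562 genes tested, for 128 of the 175 at least 4-fold higher and for 59 of the 81 at least 4-fold lower with bFGF. A CArG box preceded 2 of 128, Egr2 and Lmcd1, and 0 of 59, against 1.48% of the genes tested. TGACTCA preceded 8 of 128 (6.25%) and 3 of 59 (5.08%), against 4.25%. TGACGTCA preceded 5 of 128 (3.91%) and 4 of 59 (6.78%), against 2.84%. The ETS motif CCGGAAGT preceded 1 of 128 and 0 of 59, against 6.31%. Over all 27025 genes with a promoter the shares were 1.62%, 5.16%, 1.77% and 3.23%. The motifs do not overlap one another in these letters.

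Dusp6, the phosphatase that inactivates ERK, lay at 4.65 and 4.71 with bFGF, -1.31 and -1.26 with PD0325901 and 4.71 and 4.86 with vehicle. The bFGF and vehicle arrays overlapped, and the inhibitor arrays stood alone. The difference was 5.96 ± 0.05, or 62.4-fold. Dusp4, a nuclear phosphatase of the same family, lay at 0.88 and 0.87 with bFGF and at -3.34 and -3.21 with PD0325901, a difference of 4.15 ± 0.06. Of the 18 measured ERK feedback inhibitors, 11 were higher with bFGF, 4 lower and 3 not called, with a median difference of 0.71 against 0.02 over all genes. The counts of every list stand beside 66.7% of all genes called, 35.1% higher and 31.5% lower. Errfi1, which inhibits the EGF receptor, differed by 2.93 ± 0.06, Spred1 by 2.67 ± 0.14 (1.39 with normexp) and Spry1 by 2.57 ± 0.07. The list was not uniform. Dusp8 and Dusp14, phosphatases that act on other MAP kinases, were lower with bFGF by -1.94 ± 0.05 and -1.53 ± 0.04, with vehicle between the treatments. Spry4 and Spred2 were well above background on both bFGF arrays and on no PD0325901 array, as were 1245 genes in all. The reverse held for 23 genes.

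The immediate early list did not move as a whole. Of 27 measured factors, 11 were higher with bFGF, 10 lower and 6 not called, and the median difference was -0.04. Higher were Egr2, Fosl1, a subunit of AP-1 (4.19 ± 0.07, 3.08 with normexp), Egr1 (4.00 ± 0.06), the small Maf factor Maff (2.82 ± 0.05) and Fos (1.30 ± 0.04). Fosl1 lay at -0.87 and -0.71 with bFGF, -4.98 on both inhibitor arrays and -1.53 and -1.50 with vehicle. Fos lay below vehicle with both treatments, at means of -1.25 with bFGF and -2.54 with PD0325901 against -0.63. Lower with bFGF were the stress-induced factor Atf3 (-2.25 ± 0.04), Klf4 (-1.48 ± 0.04), Csrnp1 (-1.11 ± 0.04), Jund (-0.89 ± 0.04) and Jun (-0.82 ± 0.04). So within AP-1 Fos, Fosb, Fosl1 and Junb (0.41 ± 0.05) lay lower under the inhibitor, and Fosl2, Jun and Jund higher. Myc, a driver of growth, was lower with bFGF by -0.49 ± 0.03.

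Among 13 measured ETS factors, transcription factors that ERK phosphorylates or induces, 7 were higher with bFGF, 4 lower and 2 not called (median 0.21). Called were 84.6% of the list, against 66.7% of all genes. Etv1 differed by 3.15 ± 0.06, Etv4 by 2.94 ± 0.04, and Ets1 by 1.25 ± 0.04, while Ets2 differed by -0.40 ± 0.05. Fli1 differed by 1.24 ± 0.12 (0.56 with normexp). Etv4 lay below vehicle with both treatments, at means of -0.78 with bFGF and -3.72 with PD0325901 against -0.28.

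The genes of the cascade itself went both ways. Of 27 measured genes from the receptors to ERK and its partner kinases, 9 were higher with bFGF, 13 lower and 5 not called, with a median difference of -0.05, and 3 of the 27 were 2-fold apart, a share near the 12.4% of all genes. These were Gab1, a docking protein below the receptors (-1.51 ± 0.05), Rps6ka1, which encodes the kinase RSK1 (1.25 ± 0.05), and Egfr (1.13 ± 0.06). Sos1, which loads Ras, differed by -0.55 ± 0.04 and Rps6ka2 by 0.73 ± 0.06. Of the MEK and ERK genes, Map2k1 differed by 0.21 ± 0.06, Map2k2 by -0.14 ± 0.04 and Mapk3 by -0.31 ± 0.04.

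Among FGF ligands, receptors and cofactors 17 were measured, 5 higher with bFGF, 8 lower and 4 not called (median -0.15). The share called was 76.5%, against 66.7% of all genes. Fgfr3 was lower with bFGF (-0.97 ± 0.04) and Fgfr1 higher (0.68 ± 0.08). The dim genes Fgf9 (-1.31 ± 0.12, -0.65 with normexp), Klb (1.31 ± 0.11, 0.63 with normexp), Fgf11 (1.12 ± 0.04) and Flrt3 (-1.06 ± 0.08) had the largest differences of the list. Of 5 measured EGF-family ligands, 3 were higher, 1 lower and 1 not called (median 0.59). Btc differed by 0.88 ± 0.05, Egf by 0.84 ± 0.05 and Hbegf by -0.50 ± 0.04. Tgfa differed by 0.59 ± 0.05, but the dim gene was not called after quantile normalization. Areg, Ereg and Epgn were well above background on both bFGF arrays and on no PD0325901 array. That held for 1245 genes in all, against 23 the other way.

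For genes measured on both arrays of 1 group and on no array of the other, only a bound of the fold could be given, against a floor that is the gene's own signal or, where higher, the lowest signal called well above background on that array. There were 1245 such genes with bFGF and 23 with PD0325901. Olfactory receptor genes made up 274 of the 1245 and 0 of the 23. The lowest signal called well above background was lower on the bFGF arrays, at levels of -7.12 and -6.98. On the PD0325901 arrays it was -6.55 and -6.26. Bounds reached 2-fold for 400 and 21 of them. Serpinb2, an inhibitor of plasminogen activators, lay at 0.27 and 0.18 with bFGF, at -0.61 and -0.62 with vehicle and was not well above background with PD0325901, at least 99.0-fold higher with bFGF. Etv5 was at least 18.6-fold higher and Ereg, an EGF-family ligand, at least 10.4-fold. Both were also measured on the 2 vehicle arrays. Klrb1a (at least 20.8-fold), the kinase gene Prkg2 (at least 10.1-fold) and Ly6d (at least 9.15-fold) complete the largest bounds. In the other direction, Krt20, a keratin of gut and urothelium, was at least 19.2-fold higher with PD0325901 and Abra, an actin-binding protein of muscle, at least 16.2-fold. Upk3b, a mesothelial and urothelial membrane protein, Fgf5, Clca1 and the matrix protein Aspn followed, at least 8.82-fold, 7.95-fold, 7.85-fold and 7.38-fold higher. With the floor at the 20th percentile of signals well above background, bounds reached 2-fold for 5 and 2 genes, and those of Serpinb2, Etv5 and Ereg were 21.6-fold, 4.05-fold and 2.27-fold.

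**Figure D3:**
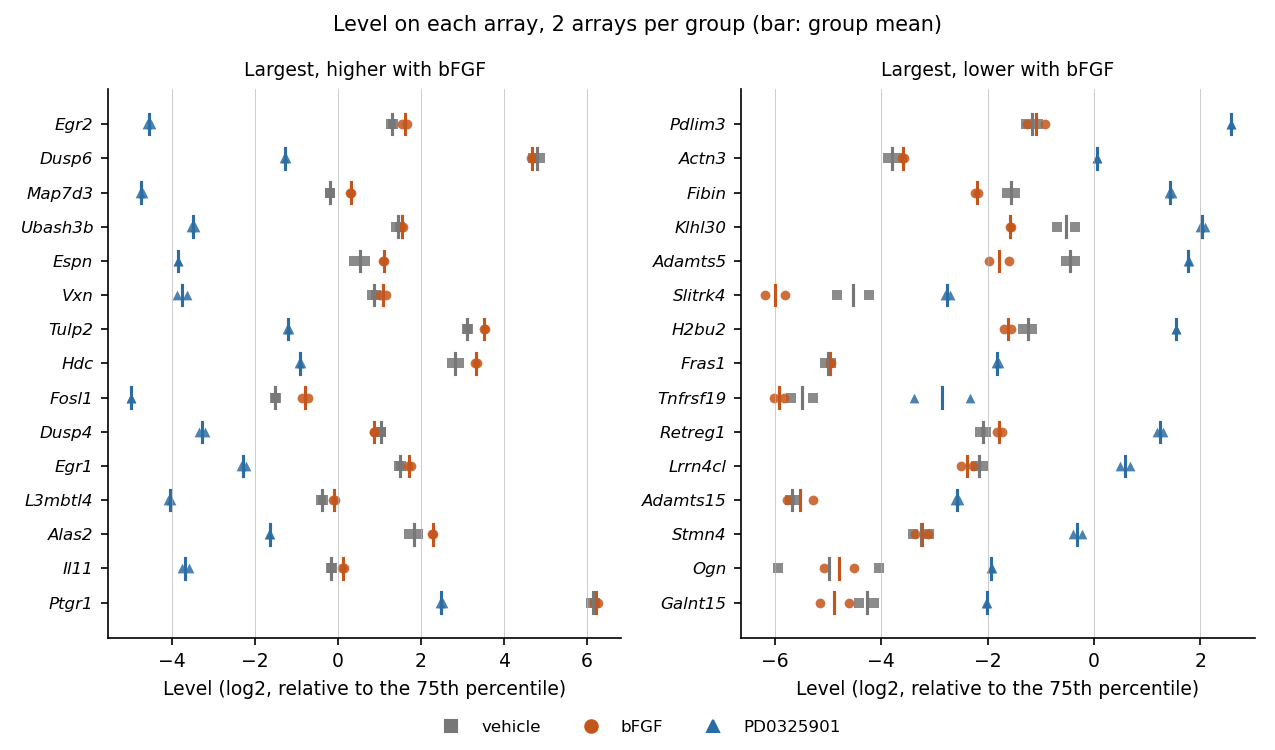
Level on each array (log2 relative to the 75th percentile) for the 15 genes with the largest differences in each direction; grey squares are vehicle, orange circles bFGF and blue triangles PD0325901, 2 arrays each, and the bar is the group mean. In all but a few rows the vehicle arrays lie close to the bFGF arrays and the inhibitor arrays stand apart.

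Besides the factors above, the genes highest with bFGF over PD0325901 were of many kinds. Ubash3b, a phosphatase that dampens receptor tyrosine kinase signals, lay at 1.52 and 1.57 with bFGF, -3.43 and -3.55 with PD0325901 and 1.48 and 1.40 with vehicle, a difference of 5.04 ± 0.06. Espn, an actin-bundling protein of the Sertoli cell junction with spermatids, lay at 1.08 and 1.12 with bFGF, -3.85 on both inhibitor arrays and 0.65 and 0.39 with vehicle. Its difference was 4.95 ± 0.04 (4.36 with normexp), and its other probe gave 5.36. Tulp2 differed by 4.73 ± 0.04 and Hdc, the enzyme that makes histamine, by 4.23 ± 0.04. Both were bright, with bFGF means of 3.52 and 3.31. Vxn (4.84 ± 0.11, 4.18 with normexp), L3mbtl4 (3.96 ± 0.04, 3.28 with normexp) and Alas2, an enzyme of haem synthesis in red cells (3.93 ± 0.04), were further members. Ptgr1, which inactivates prostaglandins and leukotrienes, was the brightest of them, at 6.17 and 6.27 with bFGF against 2.52 and 2.45 with PD0325901, a difference of 3.73 ± 0.05. Vehicle passed the test against bFGF for Espn, Tulp2, Hdc, L3mbtl4 and Alas2, and did not for Ubash3b, Vxn and Ptgr1.

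The genes lowest with bFGF were led by muscle-type proteins. Pdlim3, a protein of the sarcomere Z line, lay at -1.26 and -0.92 with bFGF, 2.59 and 2.58 with PD0325901 and -1.28 and -1.04 with vehicle, a difference of -3.67 ± 0.12 (12.7-fold). Actn3, the fast-muscle actinin, lay at -3.58 and -3.61 with bFGF and at 0.06 and 0.05 with PD0325901, a difference of -3.65 ± 0.04 (-3.05 with normexp). Klhl30 differed by -3.62 ± 0.05 and Adamts5, a protease that cuts aggrecan, by -3.57 ± 0.14. H2bu2, a histone gene, Retreg1, a receptor for autophagy of the endoplasmic reticulum, Lrrn4cl and Stmn4 differed by -3.16 ± 0.06, -3.03 ± 0.06, -2.97 ± 0.11 and -2.93 ± 0.11. Retreg1 was higher than vehicle with both treatments. Dimmer were Slitrk4 (-3.24 ± 0.15), Fras1 (-3.13 ± 0.04), Tnfrsf19 (-3.06 ± 0.38), Adamts15 (-2.96 ± 0.18), Ogn (-2.87 ± 0.20) and Galnt15 (-2.87 ± 0.20), with bFGF means of -4.80 or lower. Normexp reduced these to -1.78, -2.13, -1.70, -1.81, -1.98 and -1.83.

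**Figure D4:**
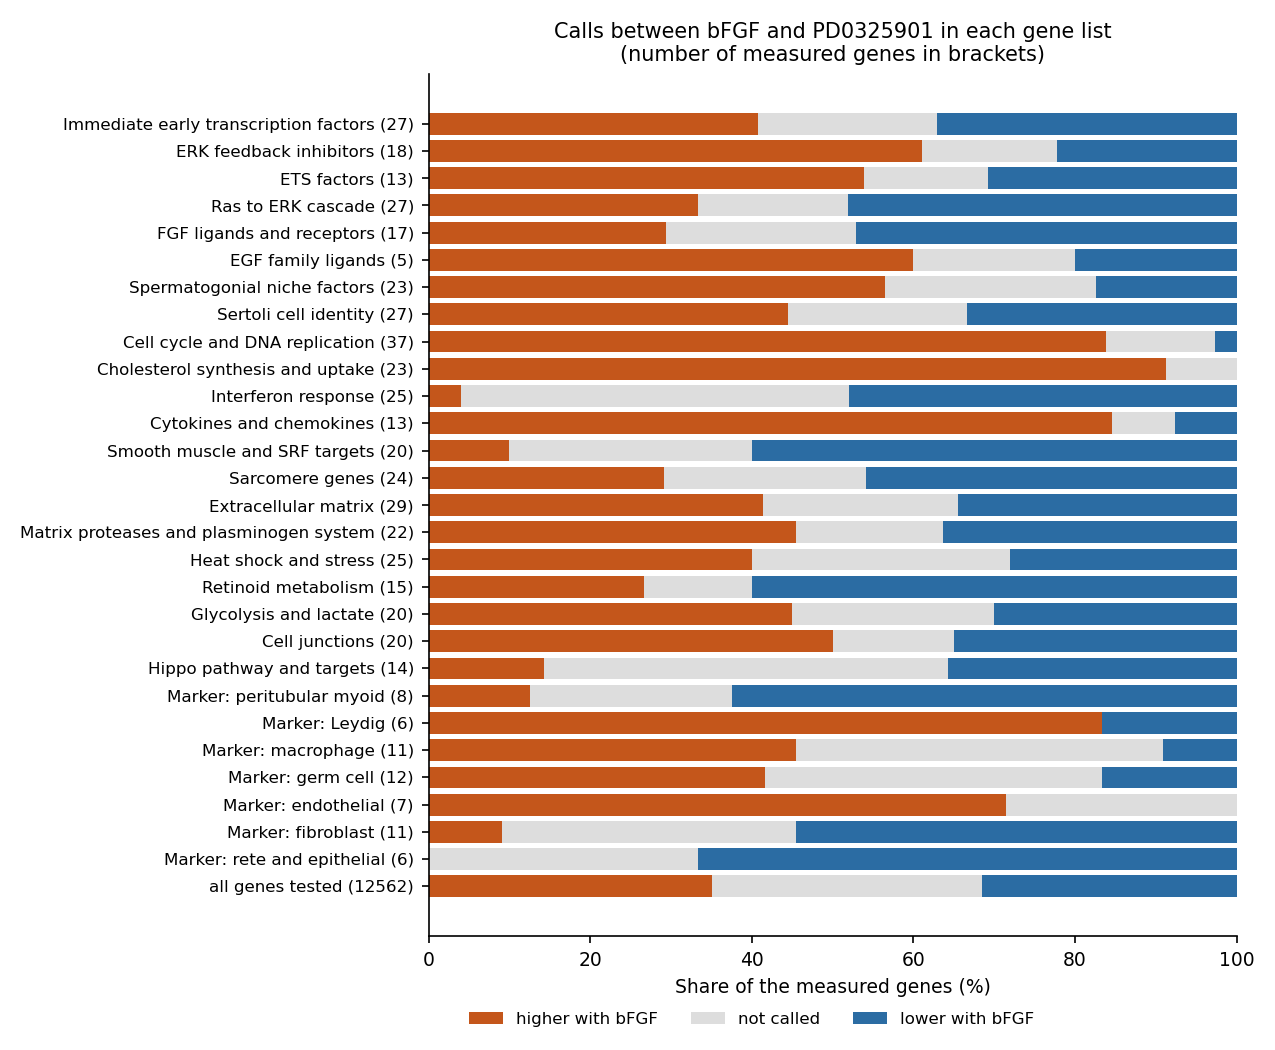
Share of the measured genes of each list (number in brackets) that were called higher (orange), not called (grey) or called lower (blue) with bFGF, with all 12562 genes at the bottom. The cholesterol (21 of 23), cell cycle (31 of 37) and cytokine (11 of 13) lists lean to bFGF and the smooth muscle list (12 of 20) to PD0325901.

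Among smooth muscle genes and targets of serum response factor, 20 were measured, 2 higher with bFGF, 12 lower and 6 not called (median -0.40). Pdlim3, Des, a muscle intermediate filament (-2.71 ± 0.06), Cnn1, calponin (-1.66 ± 0.07), and Myocd, the coactivator that drives the smooth muscle programme (-1.47 ± 0.09), were lowest. Des lay at -3.12 and -3.05 with bFGF, -0.32 and -0.44 with PD0325901 and -3.34 and -3.15 with vehicle. Cnn1 lay above vehicle with both treatments, at means of 1.15 with bFGF and 2.81 with PD0325901 against 0.33. Acta2 differed by -0.53 ± 0.06, while Tagln (-0.20 ± 0.07) and Myh11 (-0.01 ± 0.11) were not called. Of 24 measured sarcomere genes, 7 were higher, 11 lower and 6 not called (median -0.25). Next to Actn3, Myl1 (-2.41 ± 0.05, -1.76 with normexp) and Mybpc2 (-2.28 ± 0.20) were lower with bFGF, and Myoz1, a Z-line protein (2.11 ± 0.08), was higher. Myl1 lay above vehicle with both treatments, at means of -4.18 with bFGF and -1.77 with PD0325901 against -5.73.

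Markers of peritubular myoid cells and fibroblasts moved in the same direction. The myoid list shares genes with the smooth muscle list, Des and Cnn1 among them, so those lists are not independent. Of 8 myoid markers 1 was higher with bFGF, 5 were lower and 2 not called (median -0.46). Their summed linear level was 64.0 and 70.7 with bFGF, 91.7 and 92.3 with PD0325901 and 62.2 and 66.7 with vehicle. Of 11 fibroblast markers 1 was higher, 6 were lower and 4 not called (median -0.52), among them Mfap5 (-1.88 ± 0.06, -1.11 with normexp), Postn (-1.78 ± 0.04), Dpt (-1.07 ± 0.09) and Col3a1 (-0.88 ± 0.10). Their summed level was 70.2 and 78.1 with bFGF, 99.7 and 97.3 with PD0325901 and 71.8 and 71.2 with vehicle. Of 6 epithelial and rete testis markers 0 were higher, 4 lower and 2 not called (median -0.82). These were Cldn3 (-1.25 ± 0.07), Cldn4 (-1.08 ± 0.08), Krt19 (-1.62 ± 0.44) and Cdh1 (-0.55 ± 0.14), and the last pair lost the call under several alternatives. The epithelial sum was 2.05 and 2.61 with bFGF, 3.73 and 3.58 with PD0325901 and 2.85 and 2.49 with vehicle. All 8 myoid and all 11 fibroblast markers were measured on the 4 arrays, and the part of these cells in the muscle and matrix differences was not tested.

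The factors that Sertoli cells supply to spermatogonia leaned to bFGF, with 13 of 23 measured genes higher, 4 lower and 6 not called (median 0.33). Gdnf, which sustains the self-renewal of spermatogonial stem cells, lay at -1.40 and -1.42 with bFGF, -4.09 and -3.96 with PD0325901 and -1.61 and -1.52 with vehicle. Its difference was 2.61 ± 0.06 (2.00 with normexp, limma adjusted p = 0.000152). The bFGF arrays lay above both vehicle arrays, but bFGF against vehicle did not pass the test. Cyp26b1, which breaks down retinoic acid, differed by 2.41 ± 0.08, Wnt6 by 2.02 ± 0.04, the activin subunit Inhba by 1.74 ± 0.05 and the Notch ligand Jag1 by 1.42 ± 0.04. Kitl, the ligand of KIT on germ cells, differed by 0.53 ± 0.04. Lower with bFGF were Rspo1, an enhancer of Wnt signalling (-2.33 ± 0.37), Tgfb2 (-1.92 ± 0.06), Wnt5a (-1.25 ± 0.07) and Igfbp3 (-1.14 ± 0.05).

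Of 27 identity genes of Sertoli cells, 12 were higher with bFGF, 9 lower and 6 not called (median 0.03), shares not far from the 35.1% and 31.5% of all genes. Besides Espn, Fshr, the receptor for follicle-stimulating hormone, was higher with bFGF (1.42 ± 0.04), at 0.12 against -1.30 in the mean. Lower with bFGF were the prostaglandin synthase Ptgds (-1.47 ± 0.04) and Gata1 (-1.15 ± 0.05), though each lay above vehicle with both treatments. Ptgds had means of 0.53 with bFGF, 2.00 with PD0325901 and 0.32 with vehicle. For Gata1 these were -0.21, 0.94 and -0.97. Nr5a1 (-0.01 ± 0.04) and Dmrt1 (-0.07 ± 0.04) were not called. Among 20 measured junction genes, 10 were higher, 7 lower and 3 not called (median 0.16), 85% called against 66.7% of all genes. Gjb2 (1.83 ± 0.11, 1.02 with normexp), a connexin, was higher, and Tjp3 (-1.58 ± 0.06) and Cldn3 were lower. The blood-testis barrier claudin Cldn11 differed by -0.14 ± 0.04 and the gap junction gene Gja1 by -0.37 ± 0.06.

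Genes of retinoid metabolism leaned to the inhibitor, with 4 of 15 measured genes higher with bFGF, 9 lower and 2 not called (median -0.45), but its largest differences went the other way. Aldh1a3, which makes retinoic acid, lay at 1.79 and 1.86 with bFGF, -1.77 and -1.88 with PD0325901 and 1.98 and 1.76 with vehicle, a difference of 3.65 ± 0.06. Cyp26b1, given above, was also higher. The receptor Rarb (-1.17 ± 0.06) and the retinol importer Stra6 (-1.16 ± 0.05) were lower, and the synthase Aldh1a2 differed by -0.45 ± 0.04.

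Genes of DNA replication and the cell cycle were higher with bFGF in 31 of 37 measured, lower in 1 and not called in 5, with a median difference of 0.96. Rrm2, a subunit of ribonucleotide reductase, lay at 0.00 and 0.02 with bFGF, -2.46 and -2.52 with PD0325901 and 0.07 and 0.12 with vehicle, a difference of 2.50 ± 0.04. Cdc6, which loads the replicative helicase, differed by 2.01 ± 0.30 and Ccne2 by 1.86 ± 0.08. The helicase subunits Mcm2 to Mcm7 differed by 0.49 to 1.78. The mitotic kinase gene Plk1 differed by 0.23 ± 0.04, and Ccnb2 (-0.10 ± 0.04) and Cdc20 (0.06 ± 0.04) were not called. Cdkn1a, the p21 inhibitor of cyclin kinases, was the member that was lower with bFGF (-0.73 ± 0.04). For 6 of the 31 bFGF also differed from vehicle, and lay below it in each, as for Ccnd1 (means of -0.68 with bFGF, -1.79 with PD0325901 and -0.13 with vehicle).

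Of 23 measured genes of cholesterol synthesis and uptake, 21 were higher with bFGF, 0 lower and 2 not called, with a median of 0.63. The differences were smaller than those of replication. Stard4, a sterol carrier, differed by 1.23 ± 0.04, Insig1 by 1.12 ± 0.07 and the synthetic enzyme Cyp51 by 0.87 ± 0.05. Most enzymes lay below vehicle with both treatments and lowest with the inhibitor. Cyp51 had mean levels of 1.49 with vehicle, 1.12 with bFGF and 0.25 with PD0325901. In glycolysis and lactate supply, which Sertoli cells provide to germ cells, 9 of 20 genes were higher, 6 lower and 5 not called (median 0.11). Called were 75% of the list, against 66.7% of all genes. Ldha differed by 0.36 ± 0.04. The largest differences were those of Pfkfb3 (-0.83 ± 0.04), Slc2a1 (0.64 ± 0.05), Pkm (0.63 ± 0.04) and Ldhb (0.63 ± 0.05), and no gene of the list was 2-fold apart.

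Cytokines and chemokines were higher with bFGF in 11 of 13 measured genes, lower in 1 and not called in 1, with a median of 1.63. Il11 lay at 0.15 and 0.10 with bFGF, -3.76 and -3.59 with PD0325901 and -0.18 and -0.14 with vehicle, a difference of 3.80 ± 0.07 (3.20 with normexp). Ptgs2, the inducible cyclooxygenase, differed by 3.62 ± 0.14 (2.82 with normexp), the chemokine gene Cxcl14 by 3.01 ± 0.10 and Il6 by 2.96 ± 0.15 (1.46 with normexp). Ccl2, which attracts monocytes, lay at 3.33 and 3.38 with bFGF, 1.22 and 1.16 with PD0325901 and 2.32 and 2.40 with vehicle, so the treatments stood on either side of vehicle. Of 11 macrophage markers 5 were higher, 1 lower and 5 not called (median 0.19), 54.5% called against 66.7% of all genes. C1qa and C1qb were among the higher (0.81 ± 0.17 and 0.76 ± 0.08), and Aif1 was the lower one (-0.83 ± 0.06). The summed level of the 11 markers was 10.1 and 10.8 with bFGF, 9.85 and 9.57 with PD0325901 and 14.7 and 13.5 with vehicle. The part of macrophages in the cytokine differences was not tested. Interferon response genes leaned the other way, with 1 of 25 higher, 12 lower and 12 not called (median -0.33). Usp18, which dampens the interferon receptor, differed by -1.61 ± 0.12 and Gbp3 by -0.85 ± 0.13. Gbp3 lay above vehicle with both treatments, at means of -0.87 with bFGF and -0.01 with PD0325901 against -1.66. Rsad2 differed by -1.47 ± 0.36 and lost the call under 4 alternatives. Psmb8, a subunit of the immunoproteasome, was the higher gene (0.34 ± 0.07).

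Endothelial markers were higher with bFGF in 5 of 7 measured, with 0 lower and 2 not called (median 1.17). Emcn (2.35 ± 0.14, 1.25 with normexp), Flt1 (2.07 ± 0.05, 1.15 with normexp), Kdr (1.78 ± 0.09) and Cldn5 (1.17 ± 0.22) led, all dim or moderate in level. Their summed level was 1.51 and 1.60 with bFGF, 0.70 and 0.60 with PD0325901 and 1.42 and 1.43 with vehicle. Pecam1 and Tie1 were among the 1245 genes well above background on both bFGF arrays and on no PD0325901 array, against 23 the other way. Of 6 Leydig cell markers 5 were higher, 1 lower and 0 not called (median 0.35), where 66.7% of all genes were called. Their summed levels were 26.6 and 29.7 with bFGF, 22.8 and 22.9 with PD0325901, and 26.8 and 27.7 with vehicle. Of 12 germ cell markers 5 were higher, 2 lower and 5 not called (median 0.32), 58.3% called against 66.7% of all genes. Kit was lower with bFGF (-1.54 ± 0.10) and Tnp1 higher (0.79 ± 0.07). The germ cell sum was 46.2 and 52.8 with bFGF, 62.9 and 63.2 with PD0325901 and 43.1 and 40.5 with vehicle. A linear sum weighs bright genes most, and Uchl1 made up a large part of this one. Its mean level was 4.57 with bFGF, 5.44 with PD0325901 and 4.67 with vehicle, a difference of -0.87 ± 0.04. The sum thus does not stand for the list, whose median went the other way.

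Of 29 matrix genes, 12 were higher with bFGF, 10 lower and 7 not called (median -0.03), again near the 35.1% and 31.5% of all genes. Thbs1, a matrix glycoprotein, lay at 2.19 and 2.34 with bFGF, -0.62 and -0.72 with PD0325901 and 2.07 and 2.24 with vehicle, a difference of 2.94 ± 0.07. Tnc (2.77 ± 0.09) and Spp1, osteopontin (2.05 ± 0.05), were also higher, and Ogn, given above, and Postn were lower. Spp1 lay below vehicle with both treatments, at means of 6.73 with bFGF and 4.67 with PD0325901 against 7.21. Among 22 measured proteases and their inhibitors, 10 were higher, 8 lower and 4 not called (median -0.03), 81.8% called against 66.7% of all genes. Mmp3, stromelysin, lay at -1.31 and -1.06 with bFGF, -4.22 and -4.68 with PD0325901 and -1.15 and -1.21 with vehicle, a difference of 3.27 ± 0.19 (2.51 with normexp). Mmp10 (2.13 ± 0.05) and Plaur, the urokinase receptor (2.06 ± 0.04), were higher and Adamts5 and Serpine2 (-1.27 ± 0.06) lower. Mmp10 lay below vehicle with both treatments, at means of -1.01 with bFGF and -3.14 with PD0325901 against -0.72. Of 14 measured genes of the Hippo pathway 2 were higher, 5 lower and 7 not called (median -0.06). Calls covered 50% of the list, against 66.7% of all genes. The pathway's target Ankrd1 differed by 1.90 ± 0.09 and the factor Tead2 by -1.32 ± 0.06. Ankrd1 lay below vehicle with both treatments, at means of 1.36 with bFGF and -0.54 with PD0325901 against 2.26.

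In the heat shock and stress list 10 genes were higher with bFGF, 7 lower and 8 not called of 25 (median 0.12). The share called was 68%, near the 66.7% of all genes. The inducible chaperone gene Hspa1a lay at 0.49 and 0.46 with bFGF, 2.98 and 2.97 with PD0325901 and 0.33 and 0.29 with vehicle, a difference of -2.50 ± 0.04. Its near-identical copy Hspa1b differed by -2.34 ± 0.04, and the array probes may not tell the pair apart. Other chaperones did not follow. Hsp90aa1 differed by 0.00 ± 0.04, Hspa5 by -0.02 ± 0.06 and Dnajb1 by 0.32 ± 0.05. The antioxidant genes Nqo1 (1.43 ± 0.14), Gclm (1.21 ± 0.04), Hmox1 (0.85 ± 0.04) and Txnrd1 (0.80 ± 0.04) were higher with bFGF.

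**Figure D5:**
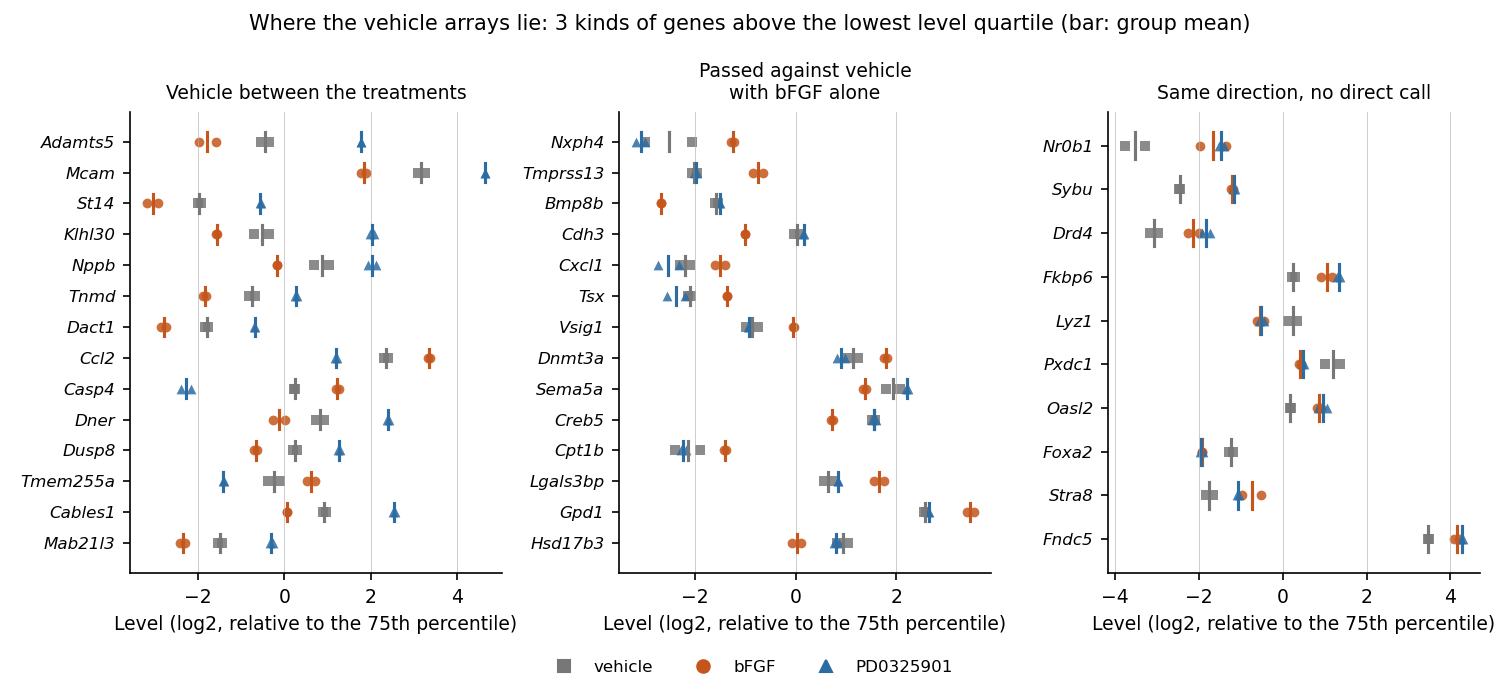
Level on each array (log2 relative to the 75th percentile) for genes above the lowest quartile of levels whose vehicle arrays lie between the treatments (left), that passed against vehicle with bFGF alone (middle), or that moved the same way with both treatments (right); symbols are as for the plot of the largest differences. On the left vehicle stands apart from both groups, in the middle it lies with PD0325901, and on the right both treatments lie together.

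For genes whose treatments lay on either side of vehicle, the direct comparison spans both differences from vehicle. Those named here lay above the lowest quartile of levels, and were chosen after their values were seen, by the smaller of their differences from vehicle. Adamts5 lay at -1.98 and -1.60 with bFGF, -0.53 and -0.36 with vehicle and 1.77 and 1.78 with PD0325901. Mcam, a cell adhesion protein of vessels and smooth muscle, lay at 1.91 and 1.77 with bFGF and at 4.65 on both PD0325901 arrays, with a vehicle mean of 3.18. No arrays of the 3 groups overlapped for either gene. Both treatments differed from vehicle by 1.34 or more. St14, a membrane protease, Klhl30, Nppb, which encodes the B-type natriuretic peptide, Tnmd, Dact1, an inhibitor of Wnt signalling, Dner, Dusp8 and Tgfb2 also lay lowest with bFGF and highest with the inhibitor. Their direct differences lay between -3.62 and -1.92. In the other direction ran Ccl2, Casp4, an inflammatory caspase (3.50 ± 0.09), Lrrc4 (3.36 ± 0.05), Tmem114 (2.35 ± 0.11) and Tnfaip2 (1.80 ± 0.11). Of the 20 genes with the largest such differences, 20 kept the call for PD0325901 against vehicle when any 1 array was left out, and 16 kept that for bFGF against vehicle. Klhl30, Nppb, Tmem255a and Tnfaip2 lost it without bFGF replicate 2, with limma adjusted p of 0.0536, 0.0639, 0.0631 and 0.056.

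By the difference alone and with dim genes included, Adgrg5, Ceacam20, Mup3 and the olfactory receptor genes Olfr1215, Olfr282 and Olfr978 joined this class, with bFGF means between -3.34 and -2.73 and PD0325901 means between -5.93 and -5.20. Slitrk4 and C1ql3 joined it in the other direction. All 8 lay in the lowest quartile of levels.

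Of the 707 genes at least 2-fold apart above the lowest quartile of levels, the 6 counted above passed against vehicle with bFGF alone. In that range of levels, Tmprss13, a membrane protease, lay at -0.86 and -0.66 with bFGF, -1.96 and -2.02 with PD0325901 and -2.07 and -1.96 with vehicle, and differed directly by 1.23 ± 0.08. Bmp8b, a growth factor of the BMP family, and Cdh3, P-cadherin, each differed by -1.16 ± 0.03. Bmp8b lay at -2.68 and -2.67 with bFGF against -1.51 and -1.53 with PD0325901 and -1.55 and -1.61 with vehicle. Vsig1 (0.89 ± 0.04), Gpd1, the glycerol-phosphate dehydrogenase (0.82 ± 0.06), Lgals3bp (0.82 ± 0.08), Creb5 (-0.83 ± 0.05) and Hsd17b3, an enzyme of testosterone synthesis (-0.79 ± 0.08), were further examples, and these 8 genes kept the call against vehicle when any 1 array was left out. Nxph4, Cxcl1, Tsx, Sema5a, Cpt1b and Dnmt3a did not, and the probes of Dnmt3a differed in sign. These names too were chosen after their values were seen. The largest of this class by the difference alone were dim, namely Ctsg, Otos, Olfr693, Ccr6 and Slc4a1, with differences of 2.81, 2.72, 2.41, 2.29 and 2.26 that normexp reduced to 1.71, 1.40, 1.18, 0.99 and 0.97. Those that passed against vehicle with neither treatment were dim as well, such as Olfr513 (2.34 ± 0.10), Hbb-y (2.34 ± 0.16), Gal3st2 (-2.31 ± 0.16) and Cacnb4 (-2.16 ± 0.06). For each of them the vehicle arrays lay far apart. Their levels were -5.09 and -3.99 for Olfr513, -7.08 and -3.88 for Hbb-y, -5.64 and -3.94 for Gal3st2 and -5.71 and -3.01 for Cacnb4.

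The direct comparison also hides genes. Among the 4187 not called, 453 differed from vehicle in the same direction with both treatments. Nr0b1, an orphan receptor that represses Nr5a1, lay at -1.97 and -1.34 with bFGF, -1.53 and -1.40 with PD0325901 and -3.28 and -3.77 with vehicle. The bFGF and PD0325901 arrays overlapped, and both lay above vehicle, while the direct difference was -0.19 ± 0.23. Sybu lay 1.25 and 1.30 above vehicle with bFGF and PD0325901, and its direct difference was -0.06 ± 0.04. Drd4, Fkbp6, Oasl2, Stra8 and Fndc5 were higher than vehicle with both, and Lyz1, Pxdc1 and Foxa2 lower. When any 1 array was left out, 6 of these 10 genes kept the call for bFGF against vehicle and 9 that for PD0325901 against vehicle. Drd4, Oasl2, Pxdc1 and Stra8 lost the former and Stra8 the latter too. These were chosen after their values were seen. A p that misses the threshold does not show that the treatments act alike. The dim genes Asic4, Baiap2l2, Ccrl2, Pmfbp1 and Slc43a2 also lay above vehicle with both, at vehicle means of -5.56 or lower. Not all of them were stable between normalizations. Asic4, Baiap2l2, Pmfbp1 and Slc43a2 were well above background on neither vehicle array. The filter asked for detection with both treatments but not with vehicle. By that selection such genes tend to lie above vehicle with both. The part of the filter in their differences was not tested, so they are not given as examples of a shared response.

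Called in the direct comparison although both treatments moved the same way were Rapgef3, a Rap activator that senses cyclic AMP (3.34 ± 0.06), Lrp8, a lipoprotein receptor (3.27 ± 0.07), Gdf15, a stress-induced cytokine (3.22 ± 0.06), Islr (3.08 ± 0.04) and Retreg1. Gdf15 had mean levels of 1.28 with vehicle, 0.82 with bFGF and -2.40 with PD0325901. For these genes bFGF lay on the side of the inhibitor, at a small part of its distance from vehicle.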

How the data were processed

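RNA of 6 samples, 2 per group, was measured on 1-colour arrays. Groups and replicate numbers came from the labels. The scanner files that the authors deposited hold background-subtracted spot intensity, written by Agilent Feature Extraction, whose version is 9.5.3.1 per the file headers and 9.5 per the submitters' processing notes. The log2 table that the authors deposited matched those intensities within 0.001, up to array scaling, for 100% of probes and served as an alternative. The processed intensity was log2-transformed, the array's 75th percentile over 43379 non-control spots was subtracted, and spots of a probe were averaged. Flagged spots removed 83 of 41174 probes. RefSeq accessions named 23333 probes (16510 genes, names of assembly GRCm38.p6). The arrays were designed on an older build, so probes have no coordinates here. A gene took the values of its brightest measured probe.

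The 4 arrays were fitted with limma 3.58.1 in R 4.3.3 (lmFit, eBayes, 2 residual degrees of freedom). The attribution used 1 model of all 6 arrays (3 residual degrees of freedom). On simulated data of 12562 genes, 50 genes were changed at each of 4 folds and the rest left unchanged. Changes of 1.2-fold were recovered in 2% of cases, of 1.5-fold in 74%, of 2-fold in 94% and of 4-fold in 98%, with 9 false calls. In the real comparison 66.7% of the genes were called, and the adjusted p depends on that share. The simulated rates are therefore not the recovery or error of the real comparison.

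The members and gene lists were chosen with earlier results of these data known. Named genes were the 15 largest in each direction, the 4 largest called members of each list, the 5 largest of each attribution class, the 10 most opposed to each other around vehicle, the 6 largest bounds in each direction and the 6 largest that moved alike without a direct call. Other list members named beside them were chosen for their known role after their values were seen. Some genes that the rule named are not reported here.

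Promoter sequences came from a RefSeq table of GRCm38.p6. Alternatives covered background correction, normalization, the detection filter, the probe rule, pairing and each array left out.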

Additional observations from a re-analysis of the deposited data

Results flagged for a closer look

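Probes without a gene name in the files' accessions took no part in the comparison, and a signal appeared there. Of 8323 such probes measured on all 4 arrays, 940 (11.3%, against 12.4% of the named genes) were called and at least 2-fold apart, 661 higher and 279 lower with bFGF. Probe A_51_P347333 lay at levels of 3.14 and 3.24 with bFGF, -1.87 and -1.62 with PD0325901 and 3.40 and 3.47 with vehicle, a log2 difference of 4.94. Probes A_51_P234185 and A_52_P457376 differed by 4.72 and 4.63, and A_51_P155873 by -4.13. For the first of these, as for Dusp6, the inhibitor arrays stood apart from the others.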

How the results depend on the processing

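Normexp background correction was planned on the mean spot signal, which the scanner output does not hold, so that form was not run. It was run instead on the median spot signal with an offset of 50, a form chosen after the data were seen. At least 2-fold apart were then 894 genes, 557 higher and 337 lower with bFGF, against 1558, 1051 and 507, while 8444 genes were called in all. Of 154 named genes, 46 moved by more than 1.5 times, all 46 to a smaller difference, as the offset by itself does to dim genes. With genes measured in at least 1 group 2722 were 2-fold apart (2188 higher), and with no filter 2946 (2387 higher). Each probe tested by itself gave 15615 calls, and a requirement of 2-fold 1558. The higher floor left bounds of 2-fold for 5 and 2 genes. Leaving out 1 array gave 6090 to 7706 calls, 3242 to 4167 higher and 2821 to 3581 lower. For the attribution it gave 115 to 600 genes for bFGF only, 184 to 663 for opposite directions, 209 to 601 for the same direction, 4113 to 5570 for the inhibitor only and 1665 to 3159 for neither. The cause was not tested.

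Deviations from the group mean were compared between same-numbered arrays over 12562 genes. Their correlation was -0.10 for bFGF with PD0325901, -0.16 for bFGF with vehicle and 0.11 for PD0325901 with vehicle. With 2 samples per group, this does not settle whether the replicate numbers pair the samples. With the replicate block 7616 genes were called, 4037 higher and 3579 lower; the attribution gave 489, 648, 495, 4871 and 1872 in the same order. Crossed numbers, added after the data were seen, gave 7645. Of 2611 values of named genes under the alternatives, 28 lost the call, 13 gained it and 1 reversed, which was Pmfbp1 with quantile normalization (-0.64). These changes touched 18 genes, among them Krt19, Rsad2, Prm1, Cdh1, Hsd3b1 and Tgfa. The number of arrays and the background limit what can be said of dim genes.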

Other observations

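Where several probes of a gene were measured, they did not always agree. Of 2729 called genes with at least 2 measured probes, 371 (13.6%) had probes whose differences had opposite signs, as had 23 of the 309 at least 2-fold apart (7.44%). Among called list members this held for Btg2, Gata6, Sparc, Star, Ptpn11, Rxra, Myl3, Elf1 and Prm1, among others, and their values stand for the brightest probe only. For 28 genes the difference was 2-fold or more without a call.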
